A study of Homo sapiens with 9 samples.

Results

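The genes described here encode enzymes that build, extend and cap mucin-type sugar chains. They were taken by name: every gene of the count table whose symbol is GALNT, FUT, ST3GAL, ST6GAL, ST6GALNAC, B3GNT, B4GALNT or GCNT followed by digits, plus C1GALT1, C1GALT1C1, B3GALT5 and GALNTL6. This gave 65 of 52158 named genes: 19 GALNT genes (GALNTL6 included), 11 FUT, 9 B3GNT, 6 ST3GAL, 6 ST6GALNAC, 5 GCNT, 4 B4GALNT and 2 ST6GAL genes, the core 1 pair and B3GALT5. No measured value entered the choice. The study sequenced total RNA of 9 human cell lines that the labels call oesophageal adenocarcinoma, with gastric cardia adenocarcinoma given as the source of each. The groups are the lines ESO-26, ESO-51, FLO-1, JH_EsoAd1, OAC_5.1_C, OACP4_C, OE19, OE33 and SK-GT-4, all grown untreated to 80% confluency, with no agent, allele or time point that sets them apart in the labels. With a single column of counts per line, differences between lines carry no replicate error and were not tested. The design text mentions 3 technical replicates per line, and the sources used here do not say how they enter the column.

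Mucin-type chains start when a GALNT enzyme links N-acetylgalactosamine to serine or threonine of a protein in the Golgi, which makes the Tn antigen. C1GALT1, which folds only with the help of its chaperone C1GALT1C1, adds galactose to give core 1, GCNT enzymes add a branch, and B3GNT enzymes lengthen the chain. Fucosyltransferases and sialyltransferases then cap the ends with blood group, Lewis and sialylated antigens, many of which are known for changing in gastrointestinal cancers, and several of these enzymes also act on N-linked chains or glycolipids.

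Levels are CPM, counts scaled to a common library size after TMM normalisation, which corrects for the makeup of each library. Depth ran from 16801179 counts in ESO-26 to 69881539 in FLO-1, and the 65 genes took 0.116% (OE19) to 0.284% (OACP4_C) of the counts. Values of 3 counts or fewer are printed as counts, a count of 0 allows up to 0.0400 CPM (FLO-1) to 0.173 CPM (ESO-26), and intervals in brackets are exact Poisson 95% intervals, which cover counting error only. Line names are used as labels only. OE19 is widely known for amplified ERBB2, but ERBB2 was 185 CPM in the library of that name and 18325 CPM in that labelled SK-GT-4, and none was reassigned. Of 8 epithelial markers, 4 reached 1 CPM in all libraries. They summed to 163 CPM in ESO-26, with 7 of 8 below 20 CPM, and to 1205 CPM in OE33, with 5 of 8 below 20 CPM, against 4002 to 14751 CPM in the other 7. In ESO-26 EPCAM was 5.13 CPM and CDH1 0.173 CPM, from 3 counts, both low for the epithelial identity of an adenocarcinoma line. KRT19, at 138 CPM, gave most of the sum in ESO-26. It was above its level in OE33 and below its level in the other 7. The identity of ESO-26 was not tested. OE33 was mixed: EPCAM was 0.189 CPM and ESRP1 and ELF3 were also under 1 CPM, while KRT8 was 903 CPM, KRT18 247 CPM and CDH1 21.5 CPM. The 5 fibroblast markers summed to 330 CPM in ESO-26 and to 1.75 to 88.0 CPM elsewhere. In ESO-26 COL3A1 gave 311 CPM of the sum, DCN 13.5 CPM and COL1A2 3.58 CPM, while LUM was 0.692 CPM and COL1A1, at 0.577 CPM, was lower than in any other library. In JH_EsoAd1 mitochondrial genes took 24.7% of counts (1.48% to 7.04% elsewhere) and 4 basal squamous markers summed to 479 CPM (0.792 to 32.4 CPM elsewhere). Most of that sum was TP63 (292 CPM) and KRT13 (177 CPM). KRT5 was 2.83 CPM there, and KRT14 was 8.03 CPM, lower than in ESO-26 (31.8 CPM). The part of these library features in the results was not tested.

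The promoters of 4 genes are shown as examples of genes that were high in some libraries and low in others. GALNT3 and B3GNT3 were nearly silent in ESO-26 and OE33, and GALNT3 in OE19 as well. FUT2 and FUT3 were highest in SK-GT-4 and ESO-51. The promoters come from RefSeq (GRCh38.p14, another build than the GRCh37 of the counts). They run from 250 bases before to 50 bases after the annotated gene start, and are printed 5′ to 3′ on the gene's strand. Capitals mark matches on either strand to GGGCGG (a GC box), CAGGTG (an E-box) or CAAAGTCCA (an HNF4-type element). Adjoining matches can share bases, as the pair of GC boxes of GALNT3 does.
GALNT3 (chr2:165794198-165794497, minus strand): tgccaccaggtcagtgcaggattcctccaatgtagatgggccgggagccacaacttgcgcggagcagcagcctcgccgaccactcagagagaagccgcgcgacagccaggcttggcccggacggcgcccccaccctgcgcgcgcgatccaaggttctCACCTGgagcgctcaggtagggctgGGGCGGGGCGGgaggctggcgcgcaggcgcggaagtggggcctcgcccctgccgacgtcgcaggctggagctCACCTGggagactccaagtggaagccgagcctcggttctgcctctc
B3GNT3 (chr19:17794888-17795187, plus strand): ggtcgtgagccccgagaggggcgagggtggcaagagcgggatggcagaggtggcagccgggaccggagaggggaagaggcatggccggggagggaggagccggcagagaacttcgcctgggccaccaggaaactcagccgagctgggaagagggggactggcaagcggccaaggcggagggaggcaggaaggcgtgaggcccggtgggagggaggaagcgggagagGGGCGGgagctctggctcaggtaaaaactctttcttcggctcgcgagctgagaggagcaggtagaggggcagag
FUT2 (chr19:48695721-48696020, plus strand): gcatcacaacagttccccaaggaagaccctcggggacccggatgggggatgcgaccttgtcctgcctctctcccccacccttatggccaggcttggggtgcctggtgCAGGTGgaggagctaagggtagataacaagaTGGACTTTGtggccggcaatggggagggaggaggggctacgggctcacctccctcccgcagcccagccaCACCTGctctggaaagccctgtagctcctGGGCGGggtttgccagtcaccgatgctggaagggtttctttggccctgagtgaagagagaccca
FUT3 (chr19:5851400-5851699, minus strand): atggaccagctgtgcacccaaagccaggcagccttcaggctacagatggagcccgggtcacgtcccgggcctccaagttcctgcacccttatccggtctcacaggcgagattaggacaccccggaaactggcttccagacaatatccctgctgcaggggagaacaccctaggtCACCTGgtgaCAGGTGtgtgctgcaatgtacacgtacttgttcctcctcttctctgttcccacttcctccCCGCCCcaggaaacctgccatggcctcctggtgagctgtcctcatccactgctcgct

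The GALNT3 window holds 2 E-boxes, at -93 and 5 from the gene start, and 28 CG dinucleotides. Positions are those of a match's first printed base, with -1 just before the start. B3GNT3 holds a single GC box at -24 and none of the other motifs. FUT2 and FUT3 each hold 2 E-boxes, at -143 and -43 and at -77 and -67, and FUT2, alone among the genes with a promoter in the table, holds the HNF4-type element, at -112. A promoter was in the table for 46 of the 65 genes. Of these, 23.9% hold an E-box, against 19.9% of all 15842 protein-coding promoters, and 65.2% hold a GC box, against 58.5%. The HNF4-type element is in 0.316% of all promoters. Among the 46, a TATA box (TATAAA) is in 2.17% against 9.63%, the HNF1-type motif GTTAAT in 4.35% against 5.25%, and the CDX motif TTTATG in 0 against 7.80%. These are descriptions of letters in a window, and the 11 with an E-box include genes as unlike in level as GALNT3 and FUT8.

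FUT3, FUT5 and FUT6 are near-copies, which matters for what their counts mean. Their coding sequences (GENCODE 29, GRCh38) are 1083, 1122 and 1092 bases long, and aligned bases are identical for 93.9% of FUT3 and FUT5, 89.1% of FUT3 and FUT6, and 91.5% of FUT5 and FUT6. The aligned 60-base stretch with the most differences is shown, with the 20 differing positions in capitals, starting at coding base 321 of FUT3, 360 of FUT5 and 318 of FUT6.
FUT3: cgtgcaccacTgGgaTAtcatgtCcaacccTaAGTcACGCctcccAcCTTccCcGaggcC
FUT5: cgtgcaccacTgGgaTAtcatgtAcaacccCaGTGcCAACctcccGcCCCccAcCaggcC
FUT6: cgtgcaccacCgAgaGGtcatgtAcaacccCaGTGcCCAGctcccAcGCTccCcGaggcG

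Elsewhere the 3 genes are letter for letter the same over 60 bases, from coding base 452 of FUT3, 491 of FUT5 and 449 of FUT6.
Shared stretch: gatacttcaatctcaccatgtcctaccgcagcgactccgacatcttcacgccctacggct

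Of all 50-base windows of the coding sequences, 41.6% in FUT3, 40.0% in FUT5 and 33.7% in FUT6 occur unchanged in another of the 3. For 100-base windows the shares were 25.8%, 24.7% and 25.4%. The merged exons, noncoding parts included, are 3109, 1992 and 4349 bases long, and their noncoding parts were not compared. The sources used here do not say how reads that fit several genes were treated, so the split of counts among FUT3, FUT5 and FUT6 is uncertain.

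The levels of the enzyme genes spread widely over the lines. At a CPM of at least 1, 58 of the 65 were found in at least 1 library, 23 in all 9, 35 in some, and 7 in none: GALNT8, GALNT13, GALNT15, GALNTL6, FUT5, FUT7 and ST6GAL2. The 23 are 39.7% of the 58, against 53.2% of the 19719 genes found in at least 1 library. ESO-26, the shallowest library, held 38 of the genes at this level and FLO-1, the deepest, 49, while OE19 and OE33 held 35 each. Among the 58, the median range between the highest and lowest library was 3.57 on the log2(CPM + 1) scale, against 1.95 over the 19719, although their median levels were alike (8.80 and 8.25 CPM). A range of at least 4 log2 units, 16-fold on that scale, was covered by 27 of the 58 (46.6%), against 15.8% of all genes. Such a range was covered by 19 without ESO-26 and OE33, by 6 with the deposited FPKM and by 12 with a pseudocount of 5. The share of all genes is given for the main setting only.

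**Figure D1:**
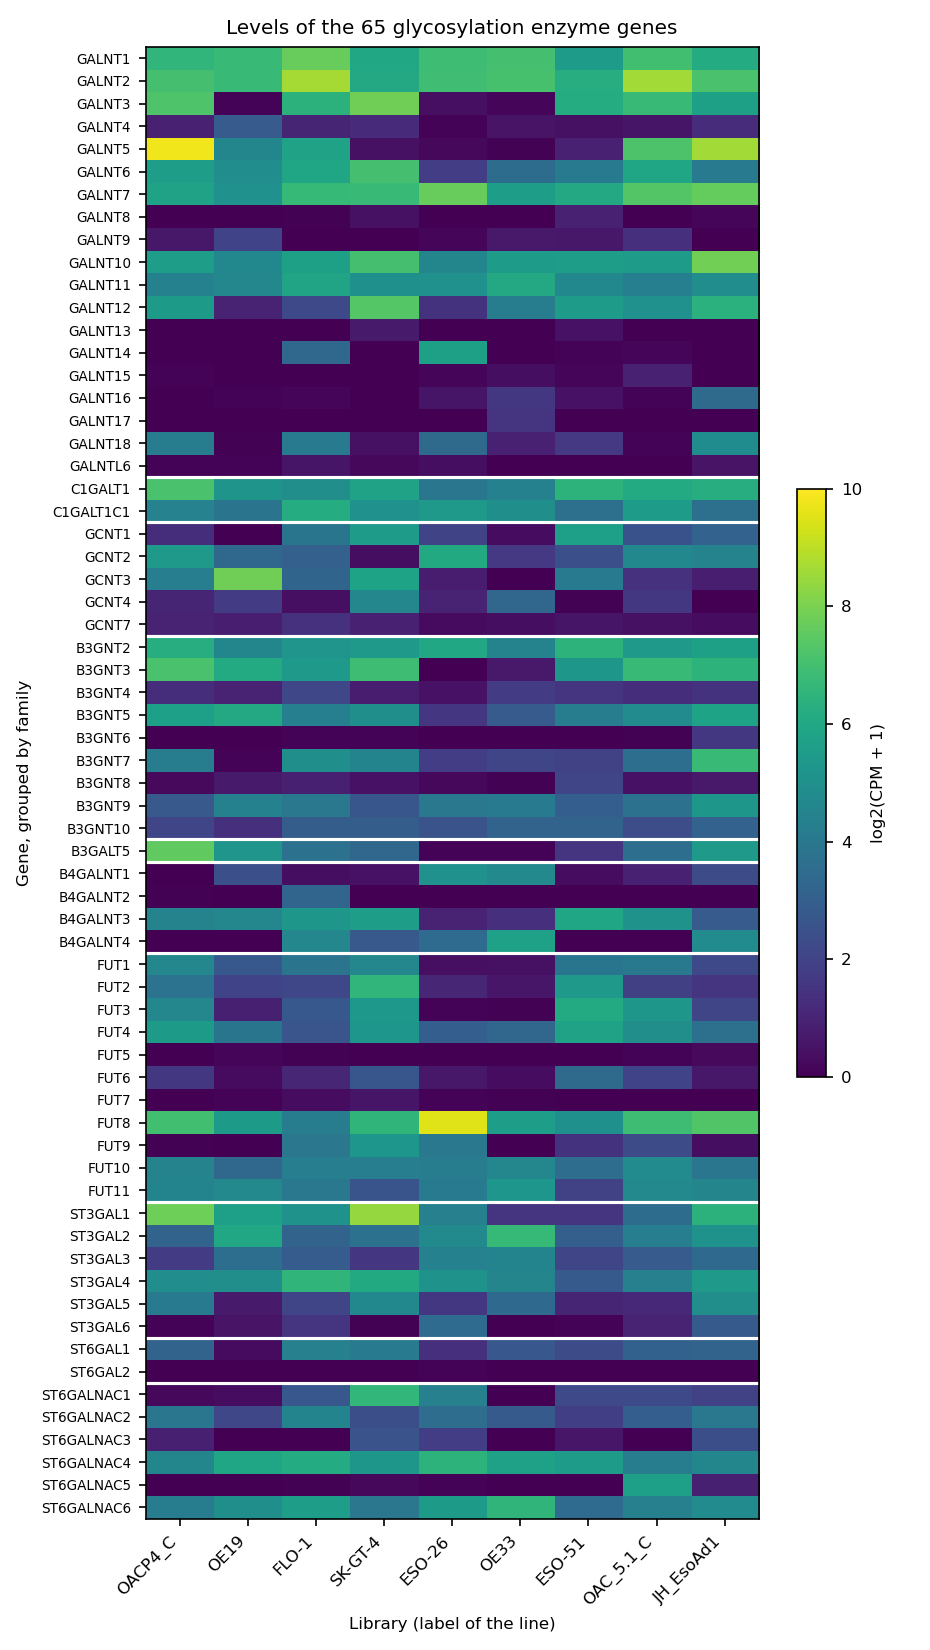
Heat map of log2(CPM + 1) for the 65 genes (rows, grouped by family, separated by white lines) in the 9 libraries (columns), from dark (0) to light (10). GALNT1, GALNT2, GALNT7, GALNT10 and GALNT11 are lit in every column, whereas GALNT3, B3GNT3, B3GALT5 and FUT3 are dark in ESO-26 and OE33.

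Some of the initiating enzymes were found in every library and others only in part of them. GALNT1 and GALNT2, which act on a broad range of proteins, were at 44.6 CPM or more in every library, and GALNT7 and GALNT10, known to prefer peptides that already carry N-acetylgalactosamine, and GALNT11 and GALNT6 were also found in all 9, GALNT6 over a range of 5.23 log2 units. GALNT1 was among the 5 genes of smallest range that were found in every library. Its CPM were 203 in FLO-1, 130.2 in OE33, 124 in OAC_5.1_C, 118 in ESO-26, 109 in OE19, 94.4 in OACP4_C, 69.8 in JH_EsoAd1, 61.6 in SK-GT-4 and 44.6 in ESO-51. GALNT11, another of these 5, lay between 19 CPM in OAC_5.1_C and 63.8 CPM in OE33. GALNT2 had CPM of 396 in FLO-1, 393 in OAC_5.1_C, 139 in JH_EsoAd1, 135 in OE33, 130.3 in OACP4_C, 119.8 in ESO-26, 106 in OE19, 73.8 in ESO-51 and 65.3 in SK-GT-4. FLO-1 and OAC_5.1_C were thus almost level and well above the rest.

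GALNT5 had the widest range of all 65 genes. Its CPM were 892 in OACP4_C, 396 in JH_EsoAd1, 148 in OAC_5.1_C, 52.8 in FLO-1, 23.1 in OE19, 0.867 in ESO-51 and 0.354 in SK-GT-4, with 3 counts in ESO-26 and 1 count in OE33. The 4 libraries from ESO-51 down were all under 1 CPM, while OACP4_C (interval 884 to 899.5) and JH_EsoAd1 (387 to 404) were highest, and OAC_5.1_C followed. GALNT3, which is known for protecting the phosphate hormone FGF23 from cleavage, was instead either high or almost absent. Its CPM were 225 in SK-GT-4, 153 in OACP4_C, 108 in OAC_5.1_C, 83.8 in FLO-1, 71.6 in ESO-51, 50.9 in JH_EsoAd1 and 0.346 in ESO-26, with 3 counts in OE33 and 2 counts in OE19. The 6 libraries with GALNT3 lay between 50.9 and 225 CPM and the other 3 under 0.4 CPM, with nothing between. OE19 is of this low set although its summed epithelial markers were 7558 CPM. Among those markers the splicing regulator ESRP1 had 3 counts in OE19, and was 0.302 CPM in OE33 and 0.519 in ESO-26, against 104 CPM or more in the other 6. The other markers lay between 77.8 CPM (CDH1) and 3342 CPM (KRT8) in OE19. CDH1 was also lower in OE19 than in those other 6, which had 128 to 546 CPM. It was lower still in OE33 (21.5 CPM) and ESO-26 (0.173 CPM). Any link of these markers to GALNT3 was not tested. In bulk RNA, fewer cells with a gene and less RNA per cell cannot be told apart. With ESO-26 and OE33 set aside, GALNT3 in OE19 lay over 4-fold below every other library.

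GALNT12, known for inherited variants in colorectal cancer, had CPM of 164 in SK-GT-4, 82.3 in JH_EsoAd1, 43.5 in ESO-51, 42.1 in OACP4_C, 32.3 in OAC_5.1_C, 17.6 in OE33, 3.57 in FLO-1, 1.79 in ESO-26 and 0.927 in OE19. OE19, ESO-26 and FLO-1 were lowest, and of these only ESO-26 was also among the lowest for GALNT5. GALNT6 had CPM of 132 in SK-GT-4, 59.7 in OAC_5.1_C, 58.2 in FLO-1, 46.3 in OACP4_C, 28.9 in OE19, 16.3 in ESO-51, 15.8 in JH_EsoAd1, 10.6 in OE33 and 2.54 in ESO-26, with ESO-26 the only library under 10 CPM. GALNT7 had its highest levels in ESO-26 (202 CPM) and JH_EsoAd1 (197 CPM) and its lowest in OE19 (32.7 CPM). GALNT10 reached 231 CPM in JH_EsoAd1 and 132 CPM in SK-GT-4, and lay between 22.8 and 49.8 CPM elsewhere.

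Several GALNT genes were confined to 1 or a few libraries. GALNT14, which is known for glycosylating death receptors, had CPM of 50.9 in ESO-26, 9.03 in FLO-1 and 0.103 in OAC_5.1_C, with 3 counts in ESO-51 and 0 counts in OACP4_C, SK-GT-4, OE19, OE33 and JH_EsoAd1. It was thus measured well in ESO-26 and FLO-1 and was at 5 counts or fewer in the other 7. GALNT16 was 10.1 CPM in JH_EsoAd1 and 2.07 CPM in OE33, and under 0.5 CPM elsewhere. GALNT17 had 51 counts in OE33 (1.92 CPM) and 0 counts in the 8 others. GALNT18 split the libraries more evenly, with 27.8, 17.4, 16.7 and 9.98 CPM in JH_EsoAd1, OACP4_C, FLO-1 and ESO-26, and 2.20 CPM or less in the rest. GALNT4 was highest in OE19 (6.31 CPM) and GALNT9 likewise (3.06 CPM). GALNT4 overlaps the read-through gene POC1B-GALNT4, which had 0 counts in every library, and a second deposited count, which keeps reads in overlaps, gave 621 counts of GALNT4 over all libraries against 427. GALNT8, GALNT13, GALNT15 and GALNTL6 stayed under 1 CPM everywhere.

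Per gene length, a different GALNT gene led in different libraries. By the authors' deposited FPKM, GALNT5 made up 66.2% of the summed FPKM of the family in OACP4_C and 39.7% in JH_EsoAd1. GALNT12 led in SK-GT-4 (42.5%) and ESO-51 (29.2%), and GALNT1 in OE19 (37.7%) and OE33 (35%). GALNT2 led in FLO-1 (30.4%) and OAC_5.1_C (26.5%), and GALNT7 in ESO-26 (36%). The deposited gene lengths are longer than the merged exons of GENCODE 29 for 54 of the 65 genes, and over all 65 the ratio of the lengths ran from 0.297 to 3.74 with a median of 1.72, so levels of genes relative to each other differ between these 2 scales. Per kilobase of merged exons the leader changed in ESO-51, to GALNT3 with 22.7%.

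**Figure D2:**
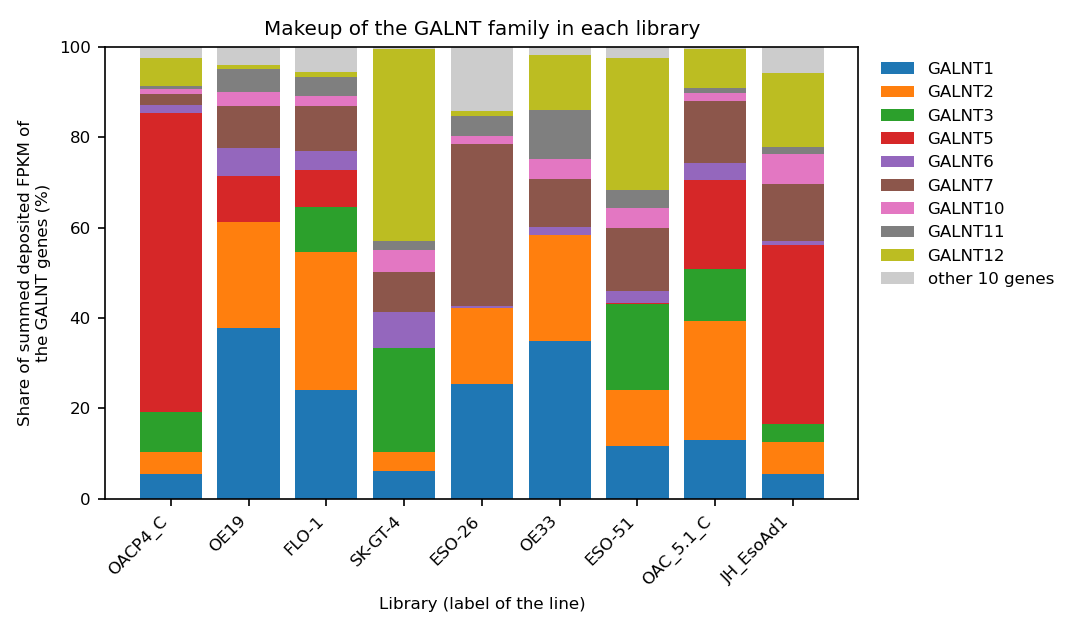
Stacked bars of each GALNT gene's share (%) of the family's summed deposited FPKM in each of the 9 libraries, 1 library per line, with the 10 other genes in grey. GALNT5 takes 66.2% in OACP4_C and 39.7% in JH_EsoAd1, GALNT12 takes 42.5% in SK-GT-4, and GALNT1 leads in OE19 and OE33.

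Both genes of the core 1 step were found in all 9 libraries, and they peaked in different ones. C1GALT1, the core 1 galactosyltransferase, had CPM of 139 in OACP4_C, 86.6 in ESO-51, 74.3 in JH_EsoAd1, 69 in OAC_5.1_C, 53.1 in SK-GT-4, 35.1 in OE19, 29.9 in FLO-1, 20.3 in OE33 and 14.4 in ESO-26. OACP4_C was highest and ESO-26 and OE33 lowest. Its chaperone gene C1GALT1C1 had CPM of 72.3 in FLO-1, 45.7 in OAC_5.1_C, 41.4 in ESO-26, 32.4 in SK-GT-4, 30.4 in OE33, 20.6 in OACP4_C, 13.5 in OE19, 11.8 in JH_EsoAd1 and 11.8 in ESO-51, so FLO-1 and not OACP4_C was highest. Per kilobase of merged exons, C1GALT1 was above C1GALT1C1 in OACP4_C (17.9 against 11.5 CPM per kb), ESO-51 (11.1 against 6.59) and JH_EsoAd1 (9.52 against 6.61), and below it in the other 6. The gap was widest in ESO-26, at 1.84 against 23.2 CPM per kb, and in FLO-1, at 3.83 against 40.5.

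None of the 5 branching genes of the GCNT family was found in all libraries. GCNT3, the mucin-type branching enzyme of gut epithelium, had CPM of 229.8 in OE19, 55.2 in SK-GT-4, 18.6 in OACP4_C, 15.9 in ESO-51, 8.27 in FLO-1, 1.67 in OAC_5.1_C, 0.793 in JH_EsoAd1 and 0.692 in ESO-26, with 0 counts in OE33. OE19 (interval 224 to 235) exceeded SK-GT-4, the next library, by 2.04 on the log2(CPM + 1) scale, and OE33 and ESO-26 were lowest. GCNT1, the core 2 branching enzyme of leukocytes and other cells, had CPM of 49.4 in ESO-51, 43.7 in SK-GT-4, 13.8 in FLO-1, 7.73 in JH_EsoAd1, 4.71 in OAC_5.1_C, 3.17 in ESO-26, 1.45 in OACP4_C and 0.264 in OE33, with 0 counts in OE19. OE19 thus held the most GCNT3 and no read of GCNT1. Per kilobase, GCNT3 exceeded GCNT1 in OE19, OACP4_C (2.87 against 0.157 CPM per kb) and SK-GT-4 (8.53 against 4.73), and GCNT1 exceeded GCNT3 in ESO-51 (5.34 against 2.45) and the other 5. GCNT2, which makes the branched I antigen, was highest in ESO-26 (65.5 CPM) and OACP4_C (41 CPM) and lowest in SK-GT-4 (0.289 CPM). GCNT4, another core 2 enzyme, had 23.5 and 8.9 CPM in SK-GT-4 and OE33, its highest libraries, and GCNT7 did not pass 1.65 CPM.

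The core 3 synthase gene B3GNT6, known from colonic mucosa, was almost silent. It had 42 counts in JH_EsoAd1 (2.08 CPM), 6 counts in FLO-1, 2 counts in SK-GT-4 and OAC_5.1_C, and 0 counts in the other 5. B3GNT3, which extends core 1 chains, had CPM of 139 in OACP4_C, 118 in SK-GT-4, 105 in OAC_5.1_C, 88.4 in JH_EsoAd1, 68.1 in OE19, 40.2 in FLO-1, 37.8 in ESO-51 and 0.603 in OE33, with 0 counts in ESO-26. It was thus above 37 CPM in 7 libraries, while the other 2 held 16 counts (OE33) and 0 (ESO-26). B3GNT3 in ESO-26 is bounded by the floor of 3 counts, 0.173 CPM. ESO-26 and OE33 are also the 2 libraries of low epithelial markers (163 and 1205 CPM summed), whose part in this result was not tested.

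The other B3GNT genes ranged from steady to widely varying. B3GNT2, the main polylactosamine synthase, had CPM of 87.4 in ESO-51, 73.4 in OACP4_C, 62.3 in ESO-26, 50.2 in JH_EsoAd1, 40.5 in OAC_5.1_C, 40.5 in SK-GT-4, 36.2 in FLO-1, 23.2 in OE19 and 21.5 in OE33, within the 5 genes of smallest range. B3GNT10 was another, at 1.64 to 8.16 CPM. B3GNT5, which starts lacto-series glycolipids, had CPM of 65.3 in OE19, 55.3 in JH_EsoAd1, 49.7 in OACP4_C, 30.6 in SK-GT-4, 27.5 in OAC_5.1_C, 19 in FLO-1, 17.2 in ESO-51, 6.26 in OE33 and 1.96 in ESO-26, lowest in ESO-26 and OE33. B3GNT7, known from keratan sulphate synthesis, had CPM of 106 in JH_EsoAd1, 30.6 in FLO-1, 21.5 in SK-GT-4, 18.1 in OACP4_C, 11.3 in OAC_5.1_C, 3.28 in OE33, 2.89 in ESO-51 and 2.54 in ESO-26, with 2 counts in OE19. JH_EsoAd1 (interval 102 to 111) was highest by 1.77 on the log2(CPM + 1) scale, and OE19 was nearly silent although it held the most B3GNT5. The part of the 24.7% of mitochondrial counts in JH_EsoAd1 in its level was not tested. B3GNT9 was highest in JH_EsoAd1 (38.3 CPM) too, and B3GNT8, which is known to activate B3GNT2, in ESO-51 (3.22 CPM). B3GNT4 lay between 0.404 and 3.33 CPM, with only 640 counts over all libraries, and is uncertain because the second deposited count, which keeps overlaps, gave it 9867.

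B3GALT5 makes the type 1 chain on which Lewis a and the CA19-9 antigen are built. Its CPM were 189 in OACP4_C, 42.1 in JH_EsoAd1, 36.1 in OE19, 12.6 in FLO-1, 11.2 in OAC_5.1_C, 8.78 in SK-GT-4 and 1.93 in ESO-51, with 2 counts in OE33 and 1 count in ESO-26. OACP4_C (interval 185 to 192) was 4.49-fold above JH_EsoAd1 and OE19 came close behind JH_EsoAd1, while ESO-26 and OE33, low in epithelial markers, were at 1 and 2 counts. Its antisense gene B3GALT5-AS1 had 4.56 CPM in JH_EsoAd1 and 3.95 CPM in OACP4_C and under 1 CPM elsewhere. The strand setting of the counts is unknown here, so reads from any stretch that both genes cover are uncertain. The second deposited count, which keeps reads in overlaps, gave B3GALT5 the same 14657 counts over all libraries.

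Among the N-acetylgalactosaminyltransferases that finish chains, none was found in all libraries. B4GALNT3, which makes the LacdiNAc group, had CPM of 58 in ESO-51, 47.8 in SK-GT-4, 38.6 in FLO-1, 33.1 in OAC_5.1_C, 24 in OE19, 21.3 in OACP4_C, 6.39 in JH_EsoAd1, 1.55 in OE33 and 0.98 in ESO-26. Its 2 lowest libraries were ESO-26 and OE33, those of low epithelial markers. B4GALNT1, the GM2 and GD2 ganglioside synthase, was the other way round, with CPM of 32.1 in ESO-26, 25.4 in OE33, 4.42 in OE19, 3.92 in JH_EsoAd1, 0.864 in OAC_5.1_C, 0.386 in SK-GT-4, 0.293 in FLO-1 and 0.267 in ESO-51, with 0 counts in OACP4_C. ESO-26 (interval 29.5 to 34.9) and OE33 (23.5 to 27.4) lay over 5-fold above OE19, the next library, and the part of their low epithelial markers in this was not tested. B4GALNT4, a second LacdiNAc enzyme, had CPM of 52.2 in OE33, 27.2 in JH_EsoAd1, 23.5 in FLO-1, 10.3 in ESO-26 and 5.98 in SK-GT-4, with 1 count in ESO-51 and 0 counts in OACP4_C, OE19 and OAC_5.1_C, so OE33 was highest and 4 libraries held 1 count or none. B4GALNT2, which makes the Sd(a) antigen of normal gut, was almost restricted to FLO-1. FLO-1 had 644 counts (8.59 CPM, interval 7.94 to 9.27), and the other 8 had 3 counts or fewer.

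The fucosyltransferases of the H and Lewis antigens varied widely. FUT2, the secretor enzyme, had CPM of 95.2 in SK-GT-4, 41.1 in ESO-51, 13.1 in OACP4_C, 3.32 in FLO-1, 3.03 in OE19, 2.7 in OAC_5.1_C, 1.88 in JH_EsoAd1, 1.1 in ESO-26 and 0.528 in OE33. SK-GT-4 and ESO-51 stood clear of OACP4_C, the third, and OE33 was lowest. FUT3, the Lewis enzyme, had CPM of 68.3 in ESO-51, 39.6 in SK-GT-4, 37.8 in OAC_5.1_C, 23.8 in OACP4_C, 5.79 in FLO-1, 3.22 in JH_EsoAd1 and 0.855 in OE19, with 1 count in ESO-26 and OE33. ESO-51, SK-GT-4 and OAC_5.1_C were highest, and OAC_5.1_C had high FUT3 with little FUT2. FUT1, the H enzyme of red cells, was between 3.62 and 23.8 CPM in 7 libraries and under 0.4 CPM in ESO-26 and OE33, where FUT3 had 1 count each. Per kilobase, FUT2 was above FUT1 in SK-GT-4 (28.2 against 5.48 CPM per kb) and ESO-51 (12.2 against 3.21) and, at low counts of both, ESO-26 and OE33, and below it in OACP4_C (3.87 against 5.49), OE19, FLO-1, OAC_5.1_C and JH_EsoAd1.

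FUT6, a near-copy of FUT3 that makes Lewis x structures, was highest in ESO-51 (9.94 CPM) and SK-GT-4 (5.34 CPM), as FUT3 was, and lowest in OE19 (0.214 CPM). FUT5, the third copy and the closest to FUT3 in coding sequence, had at most 4 counts in any library. It had 0 counts in ESO-51 and SK-GT-4, the libraries highest in FUT3. Given the stretches they share, the counts of FUT3 and FUT6 may not be fully separate measurements, and how far reads were shared was not tested. FUT4, which makes Lewis x in leukocytes and tumours, had CPM of 53.2 in ESO-51, 42.9 in OACP4_C, 37.2 in SK-GT-4, 30.1 in OAC_5.1_C, 13.7 in OE19, 12 in JH_EsoAd1, 8.86 in OE33, 7.04 in ESO-26 and 5.16 in FLO-1, a smaller range than FUT3. FUT9, another Lewis x enzyme, had CPM of 37.1 in SK-GT-4, 15.1 in ESO-26, 14.8 in FLO-1, 3.91 in OAC_5.1_C, 1.76 in ESO-51 and 0.297 in JH_EsoAd1, with 3 counts in OACP4_C and 0 counts in OE19 and OE33. SK-GT-4 was highest, and OE33, OE19 and OACP4_C were almost without reads. FUT7, the sialyl Lewis x enzyme of leukocytes, had at most 19 counts.

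FUT8 adds the core fucose of N-linked chains. Its CPM were 731 in ESO-26, 153 in JH_EsoAd1, 125 in OACP4_C, 117 in OAC_5.1_C, 91.8 in SK-GT-4, 48.1 in OE33, 42.2 in OE19, 31.4 in ESO-51 and 17.9 in FLO-1. ESO-26 (interval 718 to 744) was 4.77-fold above JH_EsoAd1, the next library, and FLO-1 was lowest. FUT8 alone made up 87.4% of the summed deposited FPKM of the FUT genes in ESO-26. ESO-26 also held fibroblast markers summed to 330 CPM and epithelial markers summed to 163 CPM, and their part in this level was not tested. FUT10 had the smallest range of the genes found in every library, 9.19 to 27.4 CPM. FUT11 ran from 2.93 CPM in ESO-51 to 37.1 CPM in OE33.

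Of the enzymes that put sialic acid on galactose, ST3GAL1 and ST3GAL2 differed in OE33, which held the least of the first and the most of the second, while ESO-51 was low in both. ST3GAL1, which caps core 1 and so stops branching, had CPM of 343 in SK-GT-4, 223 in OACP4_C, 86.1 in JH_EsoAd1, 48.5 in OE19, 32.9 in FLO-1, 19.7 in ESO-26, 10.7 in OAC_5.1_C, 1.93 in ESO-51 and 1.89 in OE33. SK-GT-4 and OACP4_C were highest, and ESO-51 and OE33 lowest at close to 2 CPM. ST3GAL2, known mainly for gangliosides, had CPM of 102 in OE33, 61.6 in OE19, 33.7 in JH_EsoAd1, 25.7 in ESO-26, 18.3 in OAC_5.1_C, 12.3 in SK-GT-4, 8.2 in FLO-1, 7.97 in OACP4_C and 7.23 in ESO-51. Per kilobase of merged exons, ST3GAL1 was 30.8 times ST3GAL2 in OACP4_C and in SK-GT-4, and 0.0203 times ST3GAL2 in OE33. The size of these ratios depends on the gene length used. By deposited FPKM, ST3GAL1 against ST3GAL2 was 7.38 against 0.469 in OACP4_C, 10.1 against 0.642 in SK-GT-4 and 0.0512 against 4.93 in OE33. ST3GAL1 and the branching enzyme GCNT3 compete for core 1. Per kilobase, GCNT3 was above ST3GAL1 in OE19 (35.5 against 5.48 CPM per kb) and ESO-51 (2.45 against 0.219), and below it in the other 7, OE33 with 0 counts of GCNT3 included.

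ST3GAL4, which acts on lactosamine chains, was found at 6.18 CPM in ESO-51 and between 19.5 and 91.1 CPM elsewhere. ST3GAL3, of like activity, was highest in OE33 (21.6 CPM) and ESO-26 (19.8 CPM). ST3GAL5, the GM3 synthase, was highest in JH_EsoAd1 (29.5 CPM) and SK-GT-4 (24.2 CPM), and ST3GAL6 in ESO-26 (10.2 CPM) and JH_EsoAd1 (6.2 CPM), with 3 counts or fewer in SK-GT-4, OE33 and ESO-51. ST6GAL1, which sialylates N-linked chains, had CPM of 19.4 in FLO-1, 16.5 in SK-GT-4, 8.03 in JH_EsoAd1, 7.99 in OACP4_C, 7.59 in OAC_5.1_C, 5.62 in OE33, 4.02 in ESO-51, 1.61 in ESO-26 and 0.214 in OE19. OE19 was lowest by far and FLO-1 highest. ST6GAL2, its brain relative, had 1 count in ESO-26 and 0 counts in the other 8.

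Among the sialyltransferases that act on N-acetylgalactosamine, ST6GALNAC1 and ST6GALNAC5 each stood far higher in 1 library than in the rest. ST6GALNAC1 makes sialyl-Tn, a tumour antigen that ends the chain before core 1. Its CPM were 98.8 in SK-GT-4, 19.7 in ESO-26, 5.56 in FLO-1, 3.6 in OAC_5.1_C, 3.56 in ESO-51, 2.78 in JH_EsoAd1, 0.249 in OE19 and 0.155 in OACP4_C, with 0 counts in OE33. SK-GT-4 (interval 95.3 to 102) was 5.01-fold above ESO-26, the next library, and OE33 had no read. Per kilobase, ST6GALNAC1 was above C1GALT1, which competes for the same Tn substrate, in SK-GT-4 (28.6 against 6.81 CPM per kb) and ESO-26 (5.72 against 1.84) and below it in the other 7. ST6GALNAC5, a ganglioside enzyme known from brain metastasis of breast cancer, was almost restricted to OAC_5.1_C. OAC_5.1_C had 2376 counts (48.9 CPM, interval 47 to 50.9), JH_EsoAd1 17 counts (0.843 CPM), and the other 7 had 5 counts or fewer.

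ST6GALNAC4, which makes disialyl-T, was the steadier counterpart. Its CPM were 86.5 in ESO-26, 69.6 in FLO-1, 59.2 in OE19, 52 in OE33, 45 in ESO-51, 37.9 in SK-GT-4, 22.9 in JH_EsoAd1, 22.9 in OACP4_C and 17.8 in OAC_5.1_C. ST6GALNAC6 was highest in OE33 (91.6 CPM) and lowest in ESO-51 (10.2 CPM), and ST6GALNAC2 highest in FLO-1 (21.6 CPM) and lowest in ESO-51 (2.6 CPM). ST6GALNAC3 did not pass 4.92 CPM and had 0 counts in OE19, FLO-1, OE33 and OAC_5.1_C.

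**Figure D3:**
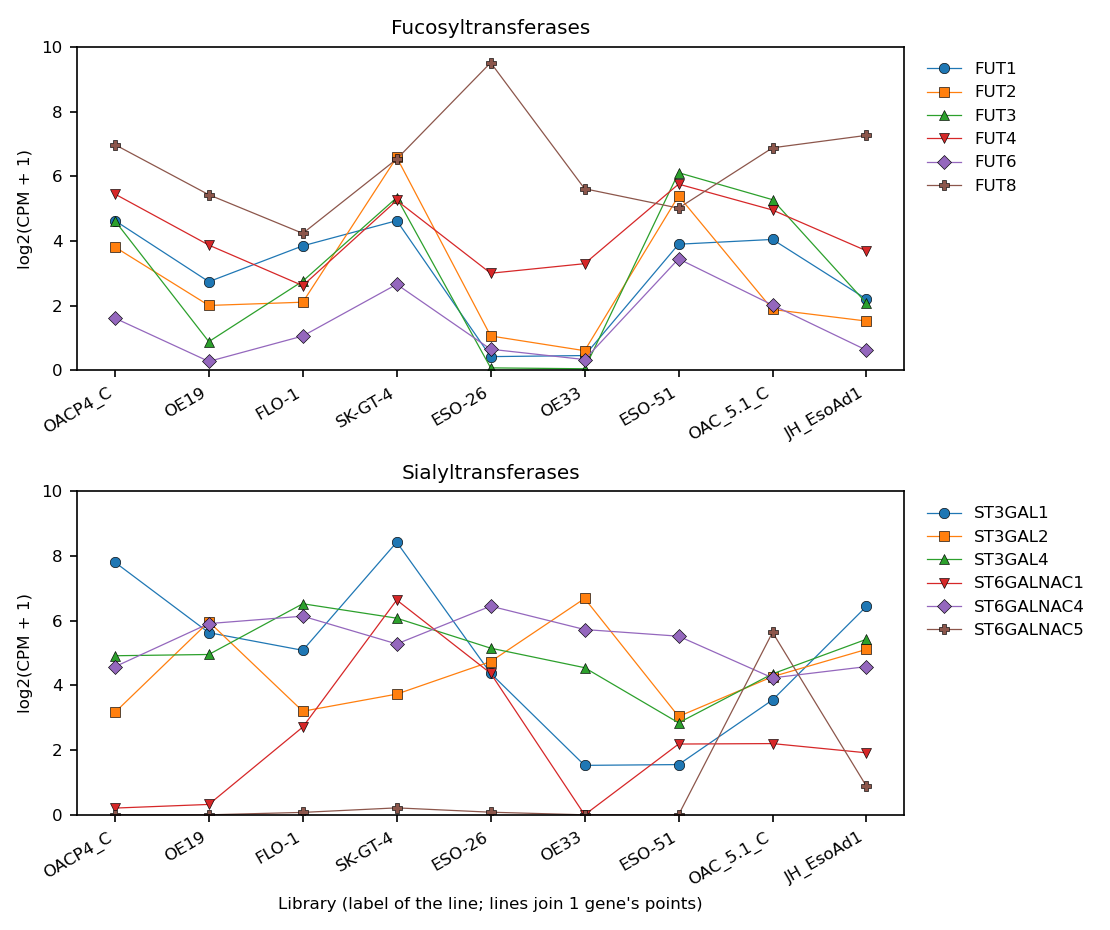
log2(CPM + 1) of 6 fucosyltransferase genes (upper panel) and 6 sialyltransferase genes (lower panel) in each library, with a thin line joining the points of 1 gene and no error bars since each line has 1 library. FUT8 stands highest in ESO-26 (731 CPM), FUT2 and FUT3 are high in SK-GT-4 and ESO-51 and near 0 in OE33, and ST6GALNAC5 leaves the baseline only in OAC_5.1_C and slightly in JH_EsoAd1.

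A gene was said to stand above the other libraries where its log2(CPM + 1) in 1 library exceeded the highest of the other 8 by at least 2, which is 4-fold on that scale, at a CPM of at least 5. By this rule 7 genes stood above, 12.1% of the 58, where 5.51% of the 19719 genes did. With the deposited FPKM in place of CPM 2 did (FUT8 in ESO-26 and GALNT5 in OACP4_C), and with a pseudocount of 5 in place of 1, 4 did. The share of all genes is given for the main setting only. Whether the excess over all genes holds in other settings is thus not shown. The 7 were FUT8 and GALNT14 in ESO-26, B3GALT5 in OACP4_C, B4GALNT2 in FLO-1, GCNT3 in OE19, ST6GALNAC1 in SK-GT-4 and ST6GALNAC5 in OAC_5.1_C. OE33, ESO-51 and JH_EsoAd1 had none. Gaps ran from 2.04 (GCNT3) to 4.76 (ST6GALNAC5). Just outside the threshold lay GALNT16 (1.85) and B3GNT7 (1.77) in JH_EsoAd1. No gene stood below the others by the mirrored rule (at least 5 CPM in each of the other 8), where 2.06% of all genes did. The nearest were B3GNT7 in OE19 (1.72) and GALNT6 in ESO-26 (1.71). Without ESO-26 and OE33, 8 stood above and 1 below, GALNT3 in OE19. B3GNT3 met the lower rule in either of ESO-26 and OE33 once the other was left out.

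**Figure D4:**
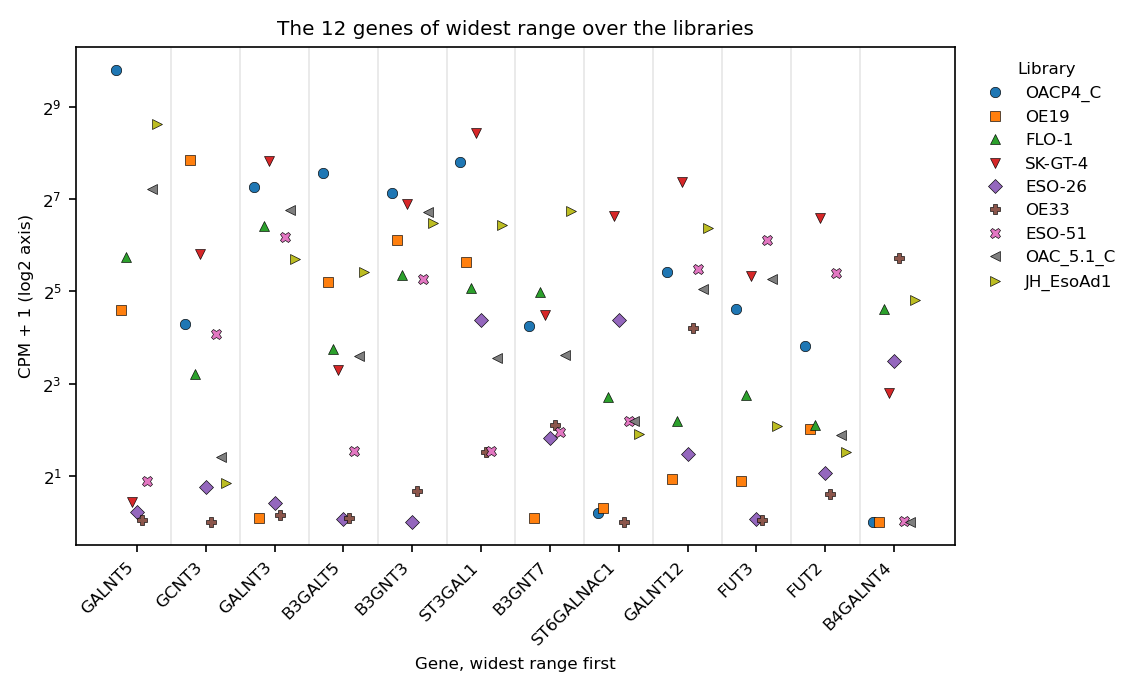
CPM + 1 on a log2 axis for the 12 genes of widest range, from GALNT5 at the left, with 1 symbol per library and no error bars since each line has 1 library. ESO-26 and OE33 sit at the bottom for B3GALT5, B3GNT3 and FUT3, OE19 joins them for GALNT3 and is alone at the bottom for B3GNT7, and OE33 is at the top for B4GALNT4.

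Read by library, each line had its own combination of high and low genes. Counts of genes at least 2-fold from the median of the other 8 libraries (log2(CPM + 1) scale) are out of the 58, and percentages in brackets are the share of all 19719 genes. SK-GT-4 had 23 genes above (12.4%) and 8 below (8.97%), led by FUT2 (4.64 on the log2 scale) and ST6GALNAC1 (4.59), with GALNT5 farthest below (-4.73). JH_EsoAd1 had 21 above (11.2%) and 9 below (5.59%), with GALNT5 (5.89) and B3GNT7 (3.89) first and GCNT3 lowest (-2.80). OACP4_C had 18 above (10.6%) and 9 below (6.09%), with GALNT5 (7.06) and B3GALT5 (4.12) first and B4GALNT4 lowest (-3.15). FLO-1 had 16 above (14.4%) and 5 below (5.64%), with GALNT14 (3.33) and B4GALNT2 first and GALNT12 lowest (-3.05).

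In OE33, ESO-51, OE19 and ESO-26, genes below outnumbered genes above. OE33 had 10 above (12.8%) and 25 below (10.9%), with B4GALNT4 (4.32) first and GALNT3 (-6.14) last. ESO-51 had 9 above (12%) and 21 below (10%), with FUT3 (3.69) first and GALNT5 (-4.27) last. OE19 had 8 above (11.6%) and 18 below (11.6%), with GCNT3 (5.54) first and GALNT3 (-6.19) last. ESO-26 had 13 above (12%) and 17 below (14.4%), with GALNT14 (5.70) first and B3GNT3 (-6.30) last. OAC_5.1_C had 9 above (12.2%) and 6 below (6.97%), with ST6GALNAC5 (5.60) first and B4GALNT4 (-3.15) last. The median over the 58 ran from -0.48 in OE33 to 0.36 in JH_EsoAd1, where the median over all genes lay between -0.02 and 0.03 in every library. With the deposited FPKM in place of CPM the median of JH_EsoAd1 was -0.17, so its sign depends on the scaling, and that of ESO-26 was 0.00 in place of -0.24.

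**Figure D5:**
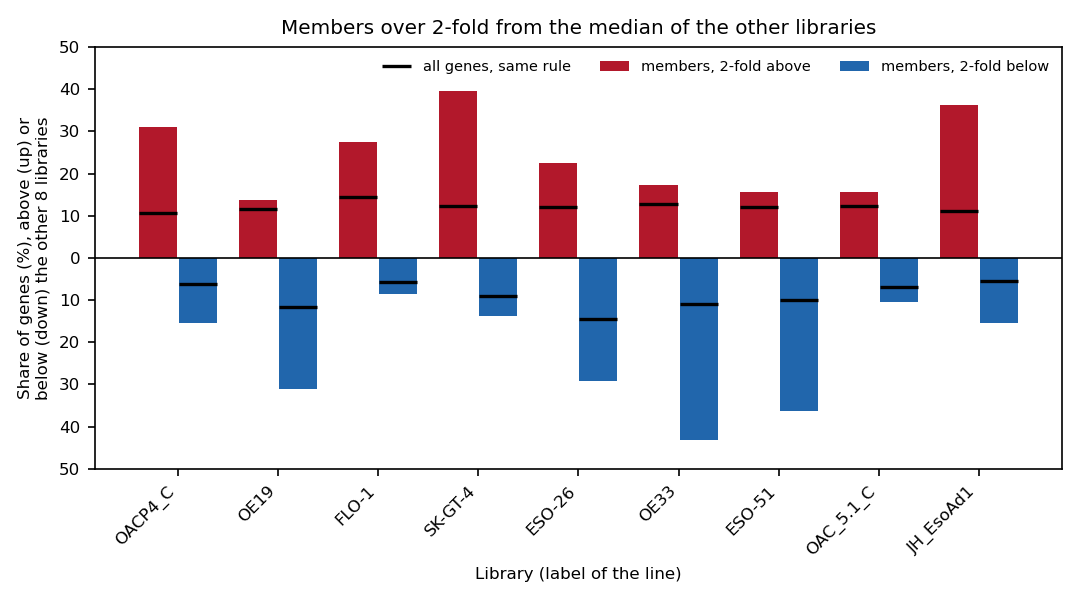
Bars give the share (%) of the 58 genes at least 2-fold above (red, up) or below (blue, down) the median of the other 8 libraries, and black ticks the same share of all 19719 genes. Every bar reaches past its tick, most in SK-GT-4 upwards (39.7%) and in OE33 downwards (43.1%).

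Most genes that supply the sugars were found in every library. Of 26 genes for nucleotide sugars and their transporters, 24 were found at 1 CPM in all 9 libraries, as were 53.2% of the 19719 genes. Their median range was 1.75 log2 units, beside 3.57 for the enzymes and 1.95 over the 19719. GMPPB stayed under 0.2 CPM in every library by the count used here. The second deposited count, which keeps reads in overlaps, was not examined for it, so its level is uncertain. By the rule given above, 1 stood above the other libraries, GFPT2 in OE33 (42.1 CPM), and none below. Of the 19719 genes, 5.51% stood above and 2.06% below. GFPT1, the entry enzyme of the hexosamine pathway, was 838 CPM in OE19, 754 CPM in ESO-51 and 108 CPM in OE33. GMDS, which starts the making of GDP-fucose, was 2.27 CPM in FLO-1 and between 10.03 and 91 CPM elsewhere. Of the 25 donor genes found, ESO-26 had 0 at least 2-fold above and 9 below (12% and 14.4% of all genes), and OE33 had 2 and 6 (12.8% and 10.9%). OE19 had 6 above and 0 below (11.6% each way), and ESO-51 5 and 1 (12% and 10%).

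Of 32 other chain-building and capping enzymes, 25 reached 1 CPM somewhere and 11 did so everywhere. By the gap rule 1 stood above and 1 below, where 5.51% and 2.06% of the 19719 genes did. GAL3ST2 stood above in ESO-51 (5.29 CPM), and B4GALT1, the main galactosyltransferase of lactosamine, stood below in ESO-26, at 3.98 CPM against 46.7 to 172 CPM elsewhere. Its relative B4GALT2 was highest there (83.9 CPM). ABO, the blood group transferase, which needs the H antigen, was 19.2 CPM in SK-GT-4, 6.36 CPM in ESO-51 and 4.16 CPM in FLO-1.

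The mucins that carry these chains had a median range of 7.77 log2 units over the 12 of 14 that reached 1 CPM. They summed to 4424 CPM in OE19, to 2736 CPM in SK-GT-4, to 311 to 628 CPM in OACP4_C, FLO-1, ESO-51, OAC_5.1_C and JH_EsoAd1, with 6.71 CPM for OE33 and 17.9 CPM for ESO-26. MUC1, MUC4, MUC5AC, MUC17 and MUC20 stood above in 1 library each and none below (5.51% and 2.06% of the 19719 genes). OE19, with the most mucin RNA, also held the most GCNT3 and had 2 counts of GALNT3, and SK-GT-4, the second, held the most GALNT3, FUT2 and ST6GALNAC1. Over single libraries these are descriptions of co-occurrence and nothing was tested on them.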

How the data were processed

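Total RNA of 9 untreated lines was sequenced, 1 library column per line. The submitters' processing notes name GRCh37, R 3.6.1, FastQC 0.11.7 and STAR 2.6.1d. The counting program, the annotation, the strand setting and the treatment of reads that fit several genes are not stated there. The deposited table holds raw whole-number counts, per the file headers and values, and its blank-named row (0.00485% to 0.00965% of counts) was dropped. For each line the deposited files add union and intersection counts and the authors' FPKM, which from the values divide each count by a deposited gene length and all counts of the file, 25.8% to 77.3% of which lie outside the table.

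CPM used TMM factors of 0.831 to 1.11 (edgeR 4.0.16, R 4.3.3), fitted on genes that reached 1 CPM in 2 or more libraries. DESeq2 1.42.0 size factors were an alternative. The rest used matplotlib 3.10.9, pandas 2.3.3, scipy 1.17.1, numpy 2.4.6 and Python 3.11.15, and the scripts were tested on simulated data. A gene named here stood above or below by the gap rule, was among the 12 of widest range or the 5 of smallest range, led its family in mean FPKM, was farthest from the other libraries in 1 library, or was named for its role. Genes and lists were chosen with earlier results of these data known. Alternatives changed the scaling, unit, pseudocount, gap, thresholds, length and libraries included. Those with TMM over all genes, FPKM over the table's totals, intersection counts, merged exons and pairs of libraries left out, and all alternatives for the wide-range count, were chosen after seeing the data. Of the marker lists, epithelial, fibroblast and basal squamous values stand in the report. The 5 haematopoietic markers summed to 0.756 to 6.69 CPM, and 25.4 CPM in ESO-26 (CD14 25.4 CPM), and the 3 endothelial markers matched, PECAM1 not being matched, to 0.0577 to 30.3 CPM. GENCODE 29 and RefSeq tables, on GRCh38, gave exon lengths and sequences only. The list of glycan-removing enzymes is not reported here.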

Additional observations from a re-analysis of the deposited data

Results flagged for a closer look

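The deposited files of the lines hold a second count, in which reads in overlaps between genes are kept, and B3GNT4 is the gene of the 65 for which it differs most from the count used here. Over all libraries it gave 9867 counts against 640, a ratio of 15.4, and by library it gave 14.8 CPM (ESO-26) to 41.8 CPM (OE33). The cause was not tested.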

How the results depend on the processing

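The 7 genes standing above the others became 2 with the deposited FPKM (FUT8 of the 7, and GALNT5 in OACP4_C), 2 with FPKM over the table's totals (FUT8 and ST6GALNAC5), 4 with a pseudocount of 5 and 15 with a gap of 1, and 6 to 10 when 1 library was left out. FUT8 in ESO-26 kept its gap in every setting run. Of 115 recomputed gaps of the 7 genes, 100 still passed, 15 did not and 0 changed sign. The cause was not tested.

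The 0 genes standing below became 3 with a gap of 1 and 0 to 3 when 1 library was left out: 3 without OE33 (B3GNT3, B3GNT5 and GALNT6 in ESO-26), and 1 each without ESO-26 (B3GNT3), SK-GT-4 (FUT11 in ESO-51) and ESO-51 (ST3GAL1 in OE33). They became 1 without ESO-26 and OE33 together and 3 without JH_EsoAd1 and ESO-26 together. The 23 genes found in every library became 5 at a deposited FPKM of 1 and 9 at an FPKM over the table's totals, the 7 found in none became 20 and 17, and 4 at a CPM of 0.5. The 27 genes of wide range became 6 and 8 with these FPKM scales and 12 with a pseudocount of 5. For this and the other counts, the share of all genes is given for the main setting only. Whether the difference from all genes holds under the alternatives is thus not shown. The leading GALNT gene by CPM, not per length, was GALNT3 in SK-GT-4 (24.4%), GALNT2 in OE33 (29.6%) and GALNT2 in ESO-51 (18.9%), and per kilobase of merged exons GALNT3 in ESO-51 (22.7%). Library medians kept their sign in all 17 settings, except in ESO-26 and JH_EsoAd1 with the deposited FPKM and in OACP4_C, where 1 setting gave 0.

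No paired analysis was possible because each line has 1 library and no replicate numbers are shared. With 1 library per line, counting error is the only error that can be given, and depth limits the values of genes at a few counts, most in ESO-26.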
